A study of Mus musculus with 7 samples.

Results

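Foxp3 and 9 genes of its transcription factor partners were described in regulatory T (Treg) cells that lacked Hpgd or were wild type. The 10 genes, Foxp3, Foxp1, Foxo1, Foxo3, Runx1, Runx3, Cbfb, Nfatc1, Nfatc2 and Nfatc3, were picked by symbol, with earlier results of these data known. All 10 were among the 15815 genes measured. The samples were 7 RNA-seq libraries of YFP+ cells sorted from the mesenteric lymph nodes (mLN) of Rag-/- mice, hosts that make no T or B cells of their own. In the KO group (3 libraries) the marked Treg cells were Hpgd-deficient, and in the WT group (4 libraries) they were WT. Alongside the marked cells, every host was given WT naive T cells and WT Treg cells without the mark, 8 weeks before the mice were killed. Hpgd encodes the enzyme that breaks down prostaglandin E2.

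The labels give all 7 samples the strain C57BL/6JRcc and 1 line entry, a floxed Hpgd with Foxp3-YFP-Cre, including the samples titled WT. In that line the Cre recombinase and the YFP are driven from Foxp3, so the sort itself selected cells with an active Foxp3 locus in both groups. The labels do not say whether each library came from a host of its own, and p-values then measure only the spread between these samples, which may be technical. The mRNA of a sorted population cannot tell fewer cells with a transcript apart from less transcript per cell.

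FOXP3 is the forkhead factor that defines Treg cells. FOXO1 and FOXO3 are forkhead factors that act on the Foxp3 gene and are pushed out of the nucleus by the kinase AKT, and FOXP1 is a relative of FOXP3 that binds many of the same sites. RUNX1 and RUNX3 bind DNA with their shared subunit CBFB, a complex that helps to keep Foxp3 expression stable in Treg cells. NFATc1, NFATc2 and NFATc3 are calcium-activated factors that enter the nucleus once calcineurin removes their phosphates, and in Treg cells NFAT and FOXP3 bind DNA together.

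Because all 3 partner families are known to act at the Foxp3 gene, and because Runx1 had the highest Pearson r with Foxp3 over the 7 libraries (0.90; Spearman rho 0.43; -0.36 without WT 2 and WT 3), a promoter window of each is shown. Both genes have 2 windows, and the ones shown were picked because they hold all 3 motifs searched. The windows run from 250 bases before to 50 bases after an annotated start and come from RefSeq (GRCm38.p6). Capitals mark matches, on either strand, to the NFAT core GGAAA, the Runx core TGTGG and the forkhead sequence TGTTTA.
Foxp3, chrX:7579426-7579725, plus strand: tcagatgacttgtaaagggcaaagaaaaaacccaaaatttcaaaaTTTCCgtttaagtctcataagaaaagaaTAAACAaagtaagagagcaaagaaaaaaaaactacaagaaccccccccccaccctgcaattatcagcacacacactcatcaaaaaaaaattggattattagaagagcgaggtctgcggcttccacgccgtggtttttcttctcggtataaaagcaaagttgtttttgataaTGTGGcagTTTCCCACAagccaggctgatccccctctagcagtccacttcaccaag
Runx1, chr16:92826025-92826324, minus strand: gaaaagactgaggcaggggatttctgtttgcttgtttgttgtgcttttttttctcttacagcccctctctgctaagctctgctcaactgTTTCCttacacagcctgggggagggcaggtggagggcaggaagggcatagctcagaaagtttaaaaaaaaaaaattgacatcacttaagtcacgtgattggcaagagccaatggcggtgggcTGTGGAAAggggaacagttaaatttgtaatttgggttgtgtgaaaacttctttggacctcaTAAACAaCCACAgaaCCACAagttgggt
Counted from 1 at the 5′ end of the window, the Foxp3 window held GGAAA on the opposite strand at bases 46 to 50 and 253 to 257. It held TGTGG on the given strand at bases 245 to 249 and on the opposite strand at bases 257 to 261, which shares base 257 with the NFAT core. TGTTTA lay on the opposite strand at bases 74 to 79. In the Runx1 window TGTGG at bases 212 to 216 shared its last bases with GGAAA at bases 215 to 219. Of all 32851 promoter windows of this length, 61.3% held GGAAA, 55.9% held TGTGG, 13.4% held TGTTTA and 4.91% held all 3. RefSeq windows were found for 9 of the 10 genes, not for Nfatc1, and 3 of their 16 windows held all 3 motifs, 1 each of Foxp3, Runx1 and Nfatc3. The other windows of Foxp3 (chrX:7580233-7580532) and Runx1 (chr16:92697280-92697579) held GGAAA and TGTGG but no TGTTTA. A match is a run of letters and no measure of binding.

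Reads per library numbered 9501939, 8919815 and 4135733 in KO 1 to 3 and between 6129064 and 10622507 in WT 1 to 4. Levels are given as normalized counts, that is reads scaled to the library. Hpgd was lower in every KO library, at 0.759, 2.42 and 5.52, against 18.7, 9.96, 10.2 and 13.4 in WT 1 to 4 (log2 fold change -2.01, SE 0.79; exact permutation p = 0.0286, the smallest that 35 splits can give). These levels rest on 1, 3 and 3 reads in KO and 17, 11, 9 and 19 in WT. Adjusted over all genes in the fit with no filter, Hpgd did not pass. All 10 Treg markers were detected, and their summed normalized count was between 35938 and 37189 in KO and between 32265 and 38649 in WT. Markers of other cells were also present. The 5 B cell markers in the table summed to between 355 and 481 in KO and between 370 and 820 in WT, mostly Cd79b, with Cd22 at 63.4 in WT 2 and Blk at up to 35.5 in KO 2, and Cd79a and Ms4a1 stayed below 13 in every library. The 4 erythroid markers summed to between 62.2 and 199 in KO and between 491 and 2033 in WT. CD8 and NK cell markers summed to between 3172 and 4456 in KO and between 2233 and 6289 in WT. Most of that was Nkg7 and Gzma, while Cd8a reached at most 16.5 and Ncr1 at most 23.1. Myeloid markers summed to between 712 and 1719 in KO and between 260 and 1570 in WT. The sums were 488 to 754 in KO and 571 to 1054 in WT for epithelial markers, and 310 to 435 and 242 to 469 for stromal markers. WT 2 stood apart from the other libraries, with 7.76% of its reads in ribosomal protein genes against 4.49% to 5.65% elsewhere.

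The Foxp3 level overlapped between KO and WT cells and varied more between libraries than that of any partner. It stood at 123, 107 and 142 normalized counts in KO 1 to 3, against 107, 56.1, 161 and 103 in WT 1 to 4. WT libraries held both the lowest and the highest level, WT 2 and WT 3, a 2.86-fold range, and the KO libraries lay between them. The counting intervals of these extremes did not meet, at 43.0 to 72.0 for WT 2 and 135 to 189 for WT 3 (95%, exact Poisson, counting error only). Foxp3 was covered by 62 to 162 reads per library, fewer than any partner. Foxp3 averaged 124 ± 17.5 in KO (SD, n = 3) and 107 ± 42.7 in WT (SD, n = 4). Its log2 fold change was 0.30, with a limma SE of 0.37 and a 95% interval from -0.51 to 1.10, and did not pass (adjusted p = 1.00). The exact permutation p for this gene was 0.514. The estimate leaned on WT 2: without that library it was 0.03.

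Foxp3 lies at 7573644 to 7595245 on the plus strand of chromosome X (GRCm38) and shares exon bases with 3 other genes of the table, Ppp1r3f, Flicr and Ccdc22. The libraries keep no strand information, so reads from shared bases cannot be assigned by strand. Flicr, a non-coding RNA from the Foxp3 locus that lowers Foxp3 in Treg cells, stood at 78.2, 132 and 66.2 in KO and at 75.9, 123, 87.1 and 131 in WT. Over the 7 libraries its r with Foxp3 was -0.59, which did not pass (exact permutation p = 0.149, adjusted over all genes 0.346). The other genes that share exon bases with Foxp3 had similar values, -0.58 for Ppp1r3f and -0.55 for Ccdc22.

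Foxp1 was the partner with the largest estimate. It stood at 838, 1174 and 1136 in KO 1 to 3, against 970.2, 648, 1107 and 768 in WT 1 to 4. WT 2 was again the lowest library, while KO 2 and KO 3 lay above every WT library and KO 1 within their range. The means were 1049 ± 184 in KO and 873 ± 205 in WT, which differed by 0.28 on the log2 scale (SE 0.23; 95% interval -0.22 to 0.77; limma adjusted p = 1.00).

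The Foxo genes did not separate the groups. Foxo1 stood at 2092, 1952 and 2159 in KO and at 2244, 1880.4, 1827 and 2296 in WT. It was the steadiest of the 10, with a 1.26-fold range over the libraries, and only 1.49% of the tested genes had a smaller standard deviation of log2 values. Its log2 fold change was 0.01 (SE 0.18; 95% interval -0.38 to 0.40). Foxo3 stood at 479.6, 456 and 799.9 in KO and at 607, 643, 541 and 465 in WT. KO 3 held the highest Foxo3 level and KO 2 the lowest, and the log2 fold change was -0.00 (SE 0.24; 95% interval -0.52 to 0.52).

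Genes that act on FOXO proteins and genes that FOXO proteins act on were read beside them. Of 33 tested kinases, phosphatases and adaptors upstream of FOXO, 0 passed in either direction, and their median log2 fold change was 0.04 (19 estimates higher and 14 lower in KO). Akt2, a kinase that phosphorylates FOXO, had the smallest p of that list, with 693, 692 and 612 in KO and 831, 1363, 789 and 641 in WT (log2 fold change -0.39, SE 0.25; limma adjusted p = 1.00). Next came Tsc2, a subunit of the complex that restrains mTORC1, with 244 ± 66.7 in KO and 323 ± 72.6 in WT (log2 fold change -0.41, SE 0.28). Of 20 tested FOXO target genes 0 passed. Their estimates were higher in KO for 16 and lower for 4, with a median of 0.17, against a median of 0.01 and 51.8% higher over all tested genes. With TMM or total-read scaling 17 of the 20 estimates were higher. Foxp3 itself is 1 of the 20. Irs2, an adaptor of insulin signalling, averaged 60.3 ± 43.1 in KO and 29.2 ± 23.0 in WT.

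The Runx genes varied between libraries more than between groups. Runx1 stood at 647, 757 and 680.4 in KO and at 671, 397, 893 and 685 in WT. Its lowest and highest libraries were WT 2 and WT 3, as for Foxp3, and the KO values lay between them (log2 fold change 0.12, SE 0.26; 95% interval -0.43 to 0.68). Runx3 stood at 1235, 856 and 846 in KO and at 897, 1348, 817 and 1044 in WT (log2 fold change -0.06, SE 0.23; 95% interval -0.56 to 0.43). Here WT 2 was the highest library and WT 3 the lowest. Cbfb stood at 859, 749 and 1160.3 in KO and at 703, 626, 999.8 and 1121 in WT, with KO 3 highest and WT 2 lowest (log2 fold change 0.11, SE 0.25; 95% interval -0.42 to 0.65). Of 18 tested genes described as RUNX targets in T cells, 0 passed, with 5 estimates higher and 13 lower in KO and a median log2 fold change of -0.07. Eomes, a T-box factor of cytotoxic cells, stood at 34.2, 27.5 and 0 in KO and at 19.8, 58.8, 31.7 and 40.1 in WT (log2 fold change -1.85, SE 1.06; limma adjusted p = 1.00). Cd8b1, the CD8 beta chain, averaged 72.8 ± 49.0 in KO and 96.6 ± 21.4 in WT.

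The NFAT genes were close between the groups. Nfatc1, the isoform that lymphocytes induce on activation, stood at 1303, 1293 and 1089 in KO and at 1054, 1357, 1404 and 981 in WT. Nfatc2, present in resting T cells, stood at 982, 729.5 and 765 in KO and at 774, 897, 748 and 780.2 in WT. Nfatc3 stood at 1050.3, 1052 and 1508 in KO and at 1056, 869, 1189.8 and 1156 in WT. Only KO 3 for Nfatc3 and KO 1 for Nfatc2 lay above the WT libraries, and only KO 2 for Nfatc2 lay below them. The log2 fold changes were 0.05 for Nfatc1 (SE 0.20; 95% interval -0.38 to 0.48), 0.04 for Nfatc2 (SE 0.19; -0.38 to 0.45) and 0.16 for Nfatc3 (SE 0.21; -0.29 to 0.61). Nfatc3 shares exon bases with Esrp2.

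Calcium and calcineurin genes and NFAT targets were read beside them. Of 28 tested calcium entry, calcineurin and NFAT kinase genes, 0 passed, with a median log2 fold change of 0.13 (19 estimates higher and 9 lower in KO). Homer2, a scaffold protein that competes with calcineurin for NFAT, stood at 7.59, 26.7 and 46.0 in KO, against 0.703 to 6.79 in WT 1 to 4. Every KO library lay above every WT library, at low counts, and the log2 fold change was 2.65 (SE 1.03; limma unadjusted p = 0.0232, adjusted p = 1.00). Itpr2, an IP3-gated calcium channel, and Csnk1a1, a casein kinase, were the only other genes of the list without overlap, and both were named after their values were seen. That makes 3 of 28, where 3.65% of all tested genes had groups that did not overlap. Itpr2 averaged 1657 ± 51.4 in KO and 1429 ± 75.5 in WT, and Csnk1a1 2797 ± 91.5 in KO and 2595 ± 131 in WT. Dyrk2, a kinase that phosphorylates NFAT, averaged 525 ± 86.0 in KO and 422 ± 88.2 in WT (log2 fold change 0.32, SE 0.23). Of 18 tested NFAT targets 0 passed, with a median of -0.10. Egr2, an early growth response factor, stood at 231, 363 and 36.8 in KO and at 216, 407, 241 and 197 in WT, with KO 3 far below the rest.

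**Figure D1:**
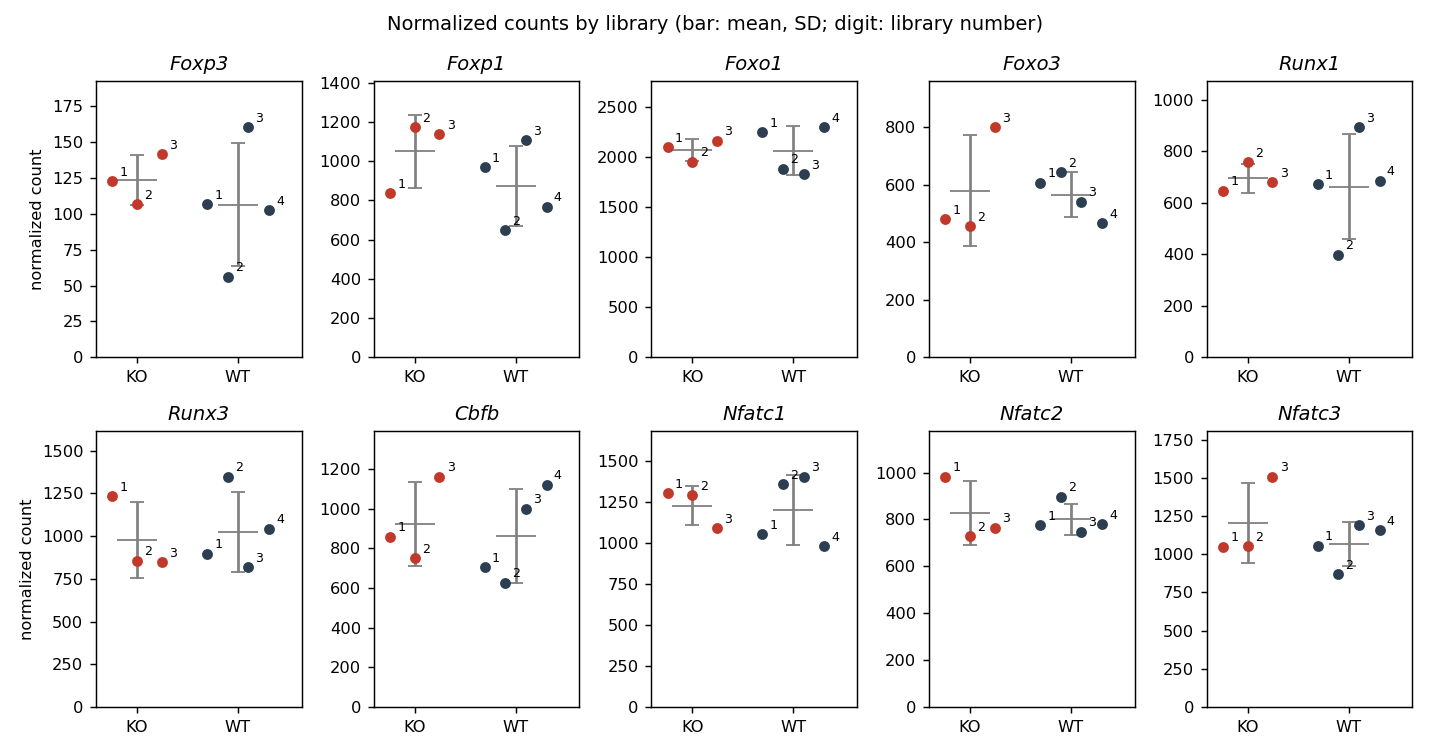
Normalized counts of the 10 genes, 1 panel per gene, with KO libraries (red) left of WT libraries (dark), each point 1 library with its number and the bars the mean and SD of the group (n = 3 and n = 4). The groups overlap in all 10 panels, and WT 2 and WT 3 hold the lowest and highest points of Foxp3 and Runx1.

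In all, 0 of the 10 genes passed between KO and WT, and the groups overlapped for all 10, where 3.65% of the tested genes had groups that did not. Of all 11787 genes tested, 0 passed (0%) and 211 had an unadjusted p below 0.05 (1.79%). Voom on the reads also called 0, with 186 below 0.05. Of the 10 estimates 8 were above 0, beside 51.8% of all tested genes, and 2, those of Foxo3 and Runx3, were below it, and they ran from -0.06 to 0.30 with a median of 0.08. With total-read scaling the Foxo3 estimate lay above 0. The 95% intervals were widest for Foxp3 and narrowest for Foxo1, and a rise of 1 log2 unit lies inside the interval of Foxp3 alone, while a fall of 1 lies outside all 10. The median standard deviation of log2 values over the 7 libraries was 0.29 for the 10 genes, 0.33 for tested genes with a mean of at least 100 and 0.40 for all tested genes.

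**Figure D2:**
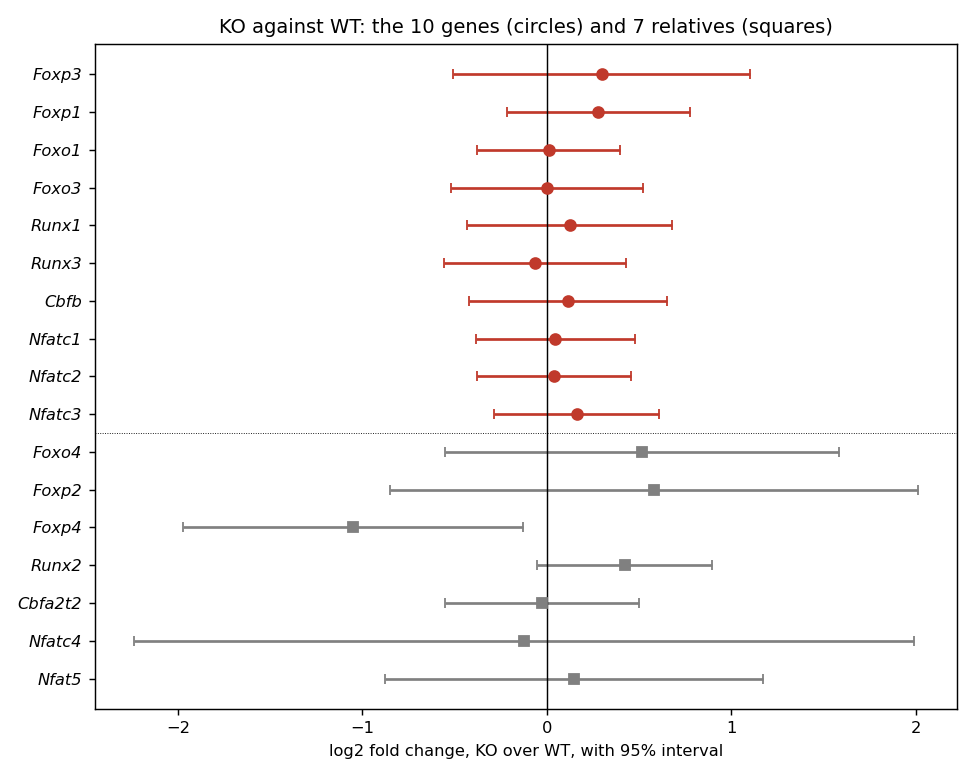
log2 fold change of KO over WT from limma with its 95% interval, for the 10 genes (circles) and 7 relatives outside the set (squares). All 10 intervals include 0, and among the relatives the interval of Foxp4 alone does not.

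Of 7 tested relatives outside the set, 1 had an unadjusted limma p below 0.05, beside 1.79% of all tested genes. Foxp4, a forkhead factor that pairs with FOXP1, stood at 75.9, 33.9 and 27.6 in KO and at 74.8, 80.6, 99.5 and 96.3 in WT. KO 1 lay just above WT 1, so the groups overlapped in 1 library (log2 fold change -1.05, SE 0.43; 95% interval -1.97 to -0.13; limma unadjusted p = 0.0282, adjusted p = 1.00). For Foxp4 the exact permutation p was 0.0571, and KO 3 held only 15 of its reads. Runx2, the Runx factor of bone formation, stood at 619, 507 and 763 in KO and at 419, 404, 528 and 515 in WT (log2 fold change 0.42, SE 0.22; 95% interval -0.05 to 0.90). Nfat5, the NFAT relative that answers osmotic stress, ran from 594 to 715 in KO and from 174 in WT 2 to 1024 in WT 3. Foxo4 averaged 63.2 ± 30.3 in KO and 42.6 ± 14.0 in WT, and Foxp2 34.2 ± 17.5 in KO and 22.3 ± 9.99 in WT. Nfatc4 averaged 12.9 ± 10.2 in KO and 12.2 ± 9.53 in WT, and the corepressor Cbfa2t2 380.3 ± 72.1 in KO and 389.7 ± 88.4 in WT. Runx1t1 and Cbfa2t3, with means below 10, were not tested, and Foxo6 was not analysed here.

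Levels of different genes can be set side by side only per length. Per kb of the longest annotated transcript, the mean over the 7 libraries was highest for Cbfb (307 normalized counts per kb), followed by Runx3 (259), Nfatc1 (253), Foxo1 (238), Nfatc3 (188), Foxp1 (132), Nfatc2 (119), Runx1 (115), Foxo3 (83.3) and Foxp3 (29.7). Foxp3 averaged 32.3 ± 4.56 in KO and 27.8 ± 11.1 in WT. Foxo3, the next gene up, lay above Foxp3 in 7 of 7 libraries and at 2.80 times its mean. Nfatc3 lay above Foxp1 in 7 of 7 libraries, and Foxo1 above Nfatc3 in 6 of 7. Among Cbfb, Runx3, Nfatc1 and Foxo1, neighbours changed places between libraries, with Cbfb above Runx3 in 5 of 7, Runx3 above Nfatc1 in 4 of 7 and Nfatc1 above Foxo1 in 4 of 7. Nfatc2 lay above Runx1 in only 2 of 7. Foxp3 kept the lowest place with the length of all exon bases or of the median transcript, while the places of other genes moved. Foxp3 shares exon bases with Ppp1r3f, Flicr and Ccdc22, and how reads from those bases were assigned is not known. The lengths used do not allow for this.

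**Figure D3:**
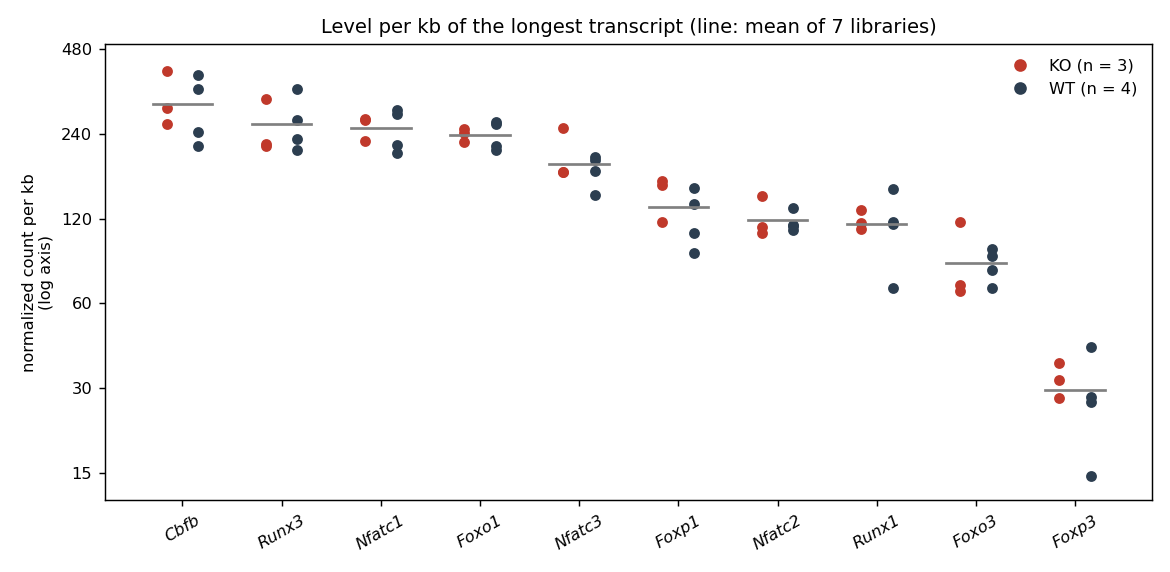
Normalized count per kb of the longest transcript on a log axis, KO libraries (red) left of WT libraries (dark) for each gene, with the line at the mean of 7 libraries. Genes are ordered by that mean, from Cbfb at 307 to Foxp3 at 29.7, and no Foxp3 point reaches the lowest Foxo3 point.

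Ratios within a library do not depend on how the library was scaled. The log2 ratio of Runx1 to Runx3 was -0.93, -0.18 and -0.31 in KO 1 to 3, against -0.42, -1.76, 0.13 and -0.61 in WT 1 to 4, so WT libraries again held both ends. The KO mean was -0.47 ± 0.40 and the WT mean -0.66 ± 0.79 (difference 0.19, exact permutation p = 0.771). The ratios of Foxp3 to Foxp1, Foxo1 to Foxo3, Runx1 to Cbfb and Nfatc1 to Nfatc2 differed between KO and WT by 0.01 to 0.02 log2 units, with exact permutation p between 0.943 and 1.00. In these 5 ratios the difference was smaller than the SD within either group.

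Foxp3 was then set against each partner over the 7 libraries. By Pearson r its level rose and fell most closely with Runx1 (Pearson r = 0.90; Spearman rho = 0.43). Nfatc3 (0.78; rho 0.64), Foxp1 (0.78; rho 0.57) and Cbfb (0.70; rho 0.54) followed, and Runx3 ran against Foxp3 (-0.72; rho -0.75). By rho, Runx1 was the nearest to 0 of these genes and Runx3 the farthest. Pearson r was nearer 0 over all 7 libraries for Foxo1 (0.12), Foxo3 (-0.04), Nfatc1 (-0.08) and Nfatc2 (-0.39). The exact permutation p was 0.0226 for Runx1, 0.0681 for Nfatc3, 0.0296 for Foxp1, 0.0542 for Cbfb and 0.0476 for Runx3, and adjusted over the 11786 other tested genes each was between 0.187 and 0.246. So 0 of the 9 partners passed. The smallest permutation p that the pairings of 7 libraries can give is 0.000198. A single gene at that p cannot pass after adjustment over 11786 genes. Of the 9 partners 3 had r of at least 0.75, beside 14.4% of all tested genes, 5 had r above 0, beside 47.7%, and none had r of -0.75 or lower, beside 12.5%. The median r was 0.12 for the partners and -0.06 for all tested genes. The partners' median was 0.47 with total-read scaling, 0.47 without WT 2 and 0.60 without WT 3. The median of all tested genes in those settings is not given here, so these 3 values have no like comparison. Of all 11786 genes 0 passed after adjustment (0%), and 22.3% had an unadjusted permutation p below 0.05.

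Most of these relations rested on WT 2 and WT 3, the libraries farthest from the median Foxp3 level. Without both, r with Foxp3 was -0.36 for Runx1, 0.36 for Foxp1, 0.46 for Cbfb, -0.06 for Runx3 and 0.75 for Nfatc3. It was -0.13 for Foxo1, 0.73 for Foxo3, 0.19 for Nfatc1 and 0.27 for Nfatc2. Without WT 2 alone, r was 0.57 for Runx1, 0.47 for Foxp1, 0.46 for Cbfb, -0.36 for Runx3 and 0.57 for Nfatc3, and -0.62 for Foxo1, 0.47 for Foxo3, 0.55 for Nfatc1 and -0.03 for Nfatc2. Without KO 1 alone, Runx3 stood at -0.93 and Nfatc2 at -0.85. The order of the partners by r therefore changed with the libraries used. With the group means removed, r was 0.91 for Runx1, 0.74 for Foxp1, 0.69 for Cbfb, -0.73 for Runx3 and 0.75 for Nfatc3. With total-read scaling Foxo1 reached 0.47 and Runx3 stood at -0.61.

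**Figure D4:**
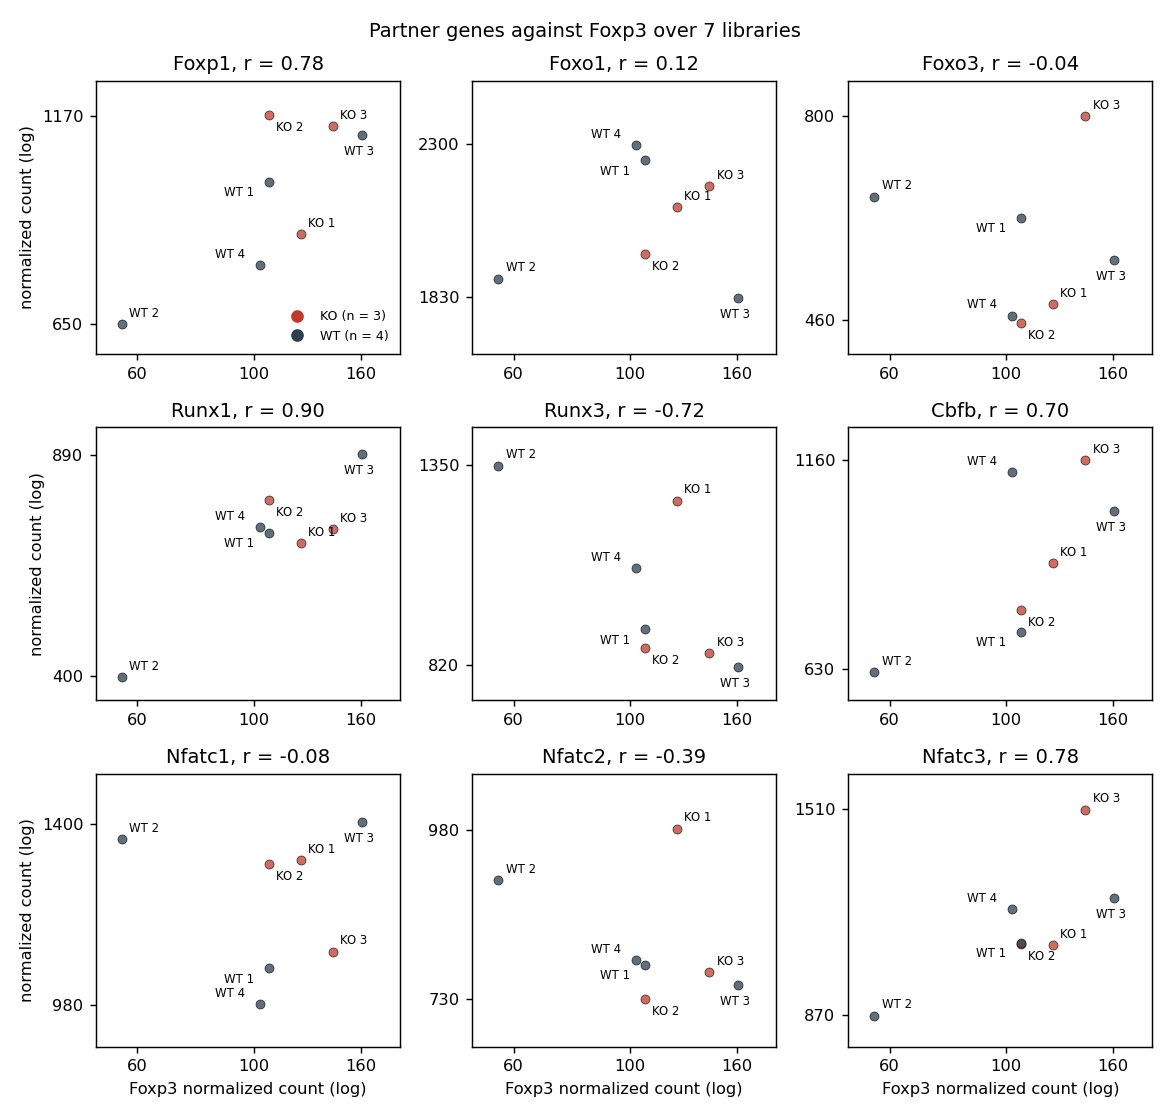
Normalized count of each partner gene against that of Foxp3, both on log axes, with KO libraries in red and WT libraries dark and Pearson r of the log2 values over 7 libraries above each panel. WT 2 lies far to the left in every panel, and for Runx1 the other 6 libraries without it give r = 0.57.

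The same libraries also differed in how their reads fell on long and short genes. Genes with a transcript of at least 6 kb took 14.0%, 14.5% and 15.3% of the reads in KO 1 to 3, against 14.3%, 9.02%, 17.2% and 14.4% in WT 1 to 4. WT 2 was lowest and WT 3 highest, the same libraries as for Foxp3 and Runx1. Over 7 libraries this share had r = 0.96 with Foxp3 (rho 0.68), 0.98 with Runx1 (rho 0.89) and -0.81 with Runx3 (rho -0.96). The summed B cell markers had r = -0.98 with Foxp3 (rho -0.96), and -0.91 without WT 2 and KO 3. That sum was mostly Cd79b, at 306 to 737 over the libraries. Blk ran otherwise, at 32.8 in WT 3 and 0 in WT 4. Other marker sums also ran against Foxp3, with r of -0.95 for T cell, -0.86 for epithelial, -0.79 for CD8 and NK cell, -0.55 for myeloid and -0.40 for erythroid markers. The stromal sum had r = 0.29, and the Treg sum, which includes Foxp3 itself, had r = 0.69. Levels of 3 genes chosen after their values were seen were set against 5 library measures, 15 relations in all. These relations and those of the marker sums are given as a description, without p-values. Without WT 2 and WT 3, r with the long-gene share was 0.62 for Foxp3, 0.24 for Runx1 and -0.70 for Runx3. Tested genes with r of at least 0.75 with Foxp3 had a median longest transcript of 4.98 kb, those at -0.75 or lower 2.14 kb, and all tested genes 3.43 kb. The part of transcript length composition or of other cells in the relations between Foxp3 and its partners was not tested.

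**Figure D5:**
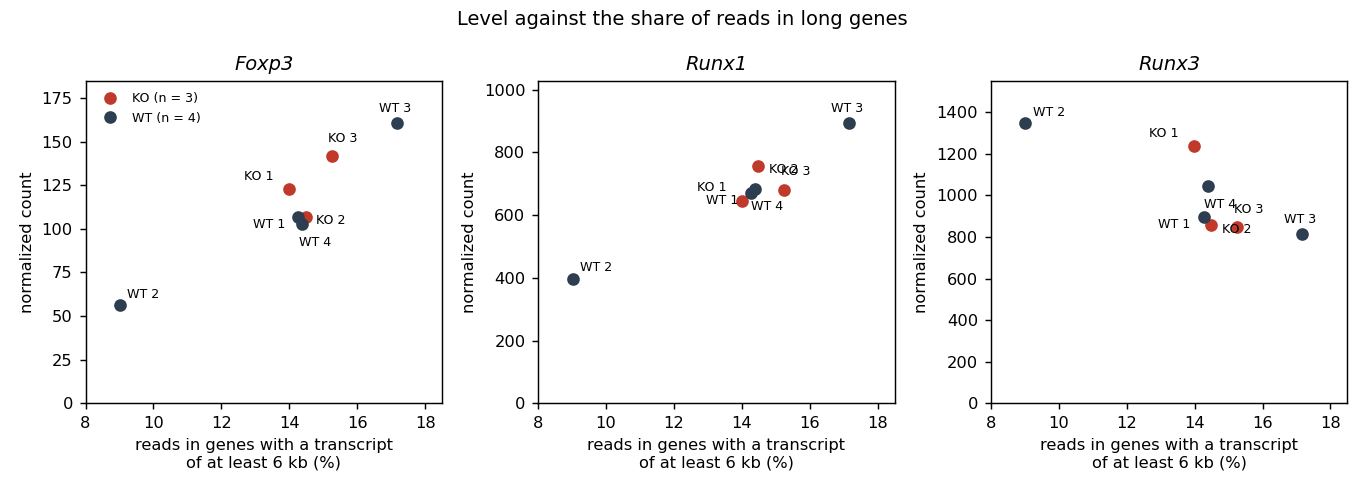
Normalized count of Foxp3, Runx1 and Runx3 against the percent of a library's reads in genes with a transcript of at least 6 kb, KO libraries in red and WT libraries dark. WT 2, at 9.02%, and WT 3, at 17.2%, have the lowest and highest share, and the lowest and highest level of Foxp3 and Runx1.

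Some partners were related among themselves. Foxo1 and Nfatc1 ran against each other (r = -0.94; rho -0.96; exact permutation p = 0.00417), with r between -0.996 and -0.914 when each library was left out in turn and -0.90 without WT 2 and WT 3. Foxo1 was highest in WT 4, WT 1 and KO 3, the 3 libraries in which Nfatc1 was lowest. Adjusted over all genes the p was 1.00 against Foxo1 and 0.999 against Nfatc1. Foxp1 and Runx3 also ran against each other (r = -0.92; rho -0.82; exact permutation p = 0.00655, adjusted 0.245 against Foxp1 and 0.158 against Runx3), with r between -0.96 and -0.84 when each library was left out. Cbfb and Nfatc3 ran together (r = 0.87; rho 0.82; exact permutation p = 0.00476, adjusted 0.208 against Cbfb and 0.151 against Nfatc3; 0.78 to 0.93 with a library left out), as did Runx3 and Nfatc2 (r = 0.89; rho 0.86; exact permutation p = 0.0159, adjusted 0.188 over all genes against Runx3 and 0.782 against Nfatc2; 0.66 without WT 2 and KO 1). Runx1 and Runx3 ran against each other (r = -0.82; rho -0.82; exact permutation p = 0.00218, adjusted 0.126 against Runx1 and 0.121 against Runx3), with r of -0.63 without WT 2 and WT 3 and -0.56 without WT 2 and KO 1. None passed after adjustment, and these pairs were singled out of 45 after their values were seen.

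The genes most like Foxp3 were found by Pearson r of log2 values over the 7 libraries, among 7826 named genes with a mean of at least 100. They were Larp4b (r = 0.99), an RNA-binding protein, Cdk13 (0.98), a kinase of RNA polymerase II, Leng8 (0.98), Ahnak (0.98), a large scaffold protein, and Atp2b1 (0.98), a calcium pump of the plasma membrane. Larp4b, Leng8 and Ahnak had the same order of libraries as Foxp3 (rho = 1.00), and Ahnak stood at 2515, 2268 and 3117 in KO and at 2399, 1437, 3523 and 2089 in WT. The most opposed genes were Hist1h2ap (-0.99), a histone gene, Phpt1 (-0.99), a phosphohistidine phosphatase, and Ndufb5 (-0.99), a subunit of respiratory complex I. These genes were chosen for their r, which is a description. The smallest adjusted permutation p over all genes was 0.167.

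Proteins that bind or modify FOXP3, and genes known to follow it, were read from lists. Of 40 tested cofactor genes 0 passed, with 20 estimates higher and 20 lower in KO and a median of 0.00. Satb1, a chromatin organiser that FOXP3 represses, stood at 1869, 1306 and 1449 in KO and at 1257, 697, 986 and 1542 in WT (log2 fold change 0.50, SE 0.26; 95% interval -0.06 to 1.07). Hdac9, a histone deacetylase, was the 1 gene of 40 without overlap, beside 3.65% of all tested genes, and was named after its values were seen, at 7.21 ± 3.18 in KO and 16.2 ± 9.85 in WT. Ikzf2, which encodes the Treg factor Helios, followed Foxp3 with r = 0.95 (rho 0.71), the highest of the list. Ctbp1, a corepressor, ran against Foxp3 with r = -0.96 (rho -0.93), the lowest. Without WT 2 and WT 3 these r were 0.67 and -0.63, and neither passed (permutation p adjusted over all genes 0.179 for each). Of the 40 genes 6 had r of at least 0.75, beside 14.4% of all tested genes. At -0.75 or lower there were 5, beside 12.5%.

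Of 24 tested genes raised with FOXP3 in Treg cells 0 passed, with 17 estimates higher and 7 lower in KO and a median of 0.05. Il10, an inhibitory cytokine, stood at 24.3, 76.7 and 180.2 in KO and at 0, 9.05, 36.2 and 69.6 in WT. Its groups overlapped, and its log2 fold change of 2.48 (SE 1.20; 95% interval -0.12 to 5.08) did not pass (limma adjusted p = 1.00). Icos, a costimulatory receptor, averaged 6717 ± 622 in KO and 5480.5 ± 1070 in WT (log2 fold change 0.31, SE 0.21). Their r with Foxp3 lay on both sides of 0, 12 of 24 above it with a median of 0.01, from Itgae at -0.90 to Prdm1 at 0.96. Of 13 tested genes repressed with FOXP3 0 passed, with a median of -0.07. Pde3b, a phosphodiesterase, averaged 50.9 ± 15.5 in KO and 70.2 ± 19.0 in WT. Of 7 tested neighbours of Foxp3 on chromosome X 0 passed, with Prickle3 at 88.3 ± 52.4 in KO and 159 ± 61.8 in WT and Ccdc22 at 57.2 ± 50.6 in KO and 86.4 ± 45.8 in WT. The genes linked to RUNX had a median r with Foxp3 of -0.54, against -0.06 for all tested genes, with 6 of 18 at -0.75 or lower, beside 12.5% of all tested genes, among them Tcf7, a factor of naive T cells, at -0.92. Tcf7 stood at -0.59 without WT 2 and WT 3. Of the 18 genes 5 had r above 0, with Il7r highest at 0.87. The median was -0.55 for the 7 neighbours of Foxp3 on chromosome X, of which 3 had r above 0. Of these neighbours 0 had r of -0.75 or lower, and Gpkow had the highest at 0.84. The T cell and the CD8 and NK cell marker sums also ran against Foxp3 (r = -0.95 and -0.79 over 7 libraries), and their part in these values was not tested. The RUNX list shares genes with these sums, Cd4 with the T cell markers and Cd8b1 and Prf1 with the CD8 and NK cell markers.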

How the data were processed

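The 7 mouse libraries were made from 10 ng of total RNA each with SmartSeq2, a full-length protocol without molecular identifiers or strand, per the labels' protocols. Of the software, mm10 is the build in the submitters' processing notes, which also list DESeq2 (version not given), kallisto 0.44, Partek 6.6, CASAVA 1.8 and R 3.3.1 without saying what each did. The deposited values are a normalized signal per gene, made by the authors. They hold an offset of 1. After subtracting it, 100% of the values of a library were whole numbers of reads times 1 factor (tolerance 0.01 read). These factors matched recomputed median-of-ratios size factors.

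Normalized counts are deposited values minus 1. To compare KO with WT, limma 3.58.1 (R 4.3.3) was fitted to log2(normalized count + 1) of all 7 libraries, using a mean-variance trend and no covariate. Benjamini-Hochberg adjustment at 0.05 covered the 11787 of 15815 genes with a mean of at least 10. Hpgd lay below that filter, and its estimate is from a fit with no filter. As deposited the values are not counts, so no count model was run, and voom on the recovered reads was an alternative. Single values used exact two-sided permutation over 35 splits. Correlations used all 5040 pairings, two-sided, adjusted over 11786 genes. Same-numbered KO and WT libraries did not deviate together, and no 2 libraries agreed within sampling noise (smallest chi-square per degree of freedom 12.0). The code was tested on simulated data.

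GENCODE M21 (GRCm38) gave transcript lengths and gene coordinates, and RefSeq gave promoters. The 10 genes and all lists were chosen with earlier results of these data known. Beside the 10 genes, Hpgd and the relatives, the text names per list the 2 genes with the smallest p, and the 5 genes most like and 3 most unlike Foxp3. Genes that this rule gives and the text does not name are not reported here. The highest and lowest r within a list, and genes marked so, were named after their values were seen. Array weights, other scalings, filters and pseudocounts, a replicate block and leaving out libraries were the alternatives.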

Additional observations from a re-analysis of the deposited data

How the results depend on the processing

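None of the 10 genes passed between KO and WT under any alternative run, so the signs below are those of estimates within their error. Without both WT 2 and KO 3, 4 genes of the table were called, and the estimates reversed for Foxp3 (-0.076), Foxo1 (-0.063), Runx1 (-0.087), Runx3 (0.17), Cbfb (-0.20) and Nfatc3 (-0.11), as did the log2 ratios of Foxp3 to Foxp1 (-0.16) and Runx1 to Runx3 (-0.26). With array weights 4 genes were called, and Foxo1 (-0.10), Cbfb (-0.14) and Nfatc3 (-0.022) reversed. With the replicate number as a block 3 genes were called and Nfatc1 reversed (-0.044), while the numbers did not pair the libraries (correlations of same-numbered deviations 0.01, -0.04 and 0.09). With total-read scaling Foxo3 reversed (0.0055). When each library was left out in turn, 0 genes were called each time, and the log2 fold changes ranged from 0.03 to 0.53 for Foxp3, 0.15 to 0.43 for Foxp1, -0.045 to 0.065 for Foxo1, -0.26 to 0.15 for Foxo3, -0.10 to 0.29 for Runx1, -0.24 to 0.075 for Runx3, -0.063 to 0.25 for Cbfb, -0.044 to 0.13 for Nfatc1, -0.095 to 0.12 for Nfatc2 and -0.012 to 0.25 for Nfatc3. The ratio differences ranged from -0.14 to 0.21 for Foxp3 to Foxp1, -0.11 to 0.24 for Foxo1 to Foxo3, -0.18 to 0.45 for Runx1 to Runx3, -0.19 to 0.20 for Runx1 to Cbfb and -0.11 to 0.12 for Nfatc1 to Nfatc2. The median r of Foxp3 with its partners ranged from 0.04 to 0.60, and Foxp3 kept place 10 per kb. The other 127 values not from leaving out 1 library kept their sign or moved by less than the spread. For the median r that spread was the SD of r over the 9 partners, a wide limit. Total-read scaling moved this median from 0.12 to 0.47 and stayed within it. The causes were not tested. KO 3 had the fewest reads, and Foxp3, with 62 to 162 reads per library, has the widest counting error of the 10 genes.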
